A study of Rattus norvegicus with 9 samples.

Results

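The YAP and TEAD pathway genes examined here are 10 genes chosen by symbol: the coactivators Yap1 and Wwtr1, the transcription factor Tead1, the target genes Ccn1, Ccn2, Ankrd1 and Axl, and the regulators Amotl2, Lats2 and Ajuba. They are 10 of the 36856 genes that the deposited tables cover, and all 10 had enough reads to be tested among 14706 genes. RNA was sequenced from H9c2(2-1) cells, a wild-type myoblast line from the heart of an embryonic BD1X rat, in 3 groups of 3 libraries. Control cells had no treatment and were kept in normal growth medium. The other cells were pre-treated for 72 h with energized structured water (ESW, labelled "Eneried structured water") or with control water (CW), each at a dilution of 0.01, with fresh medium every 24 h. All groups grew in DMEM with 10% FBS. The labels give no time or medium renewal for Control, so in comparisons with Control water and handling cannot be told apart. The labels name 1 cell line and do not say whether replicates were grown as separate cultures. P-values therefore set differences between groups against the spread between these libraries, which may be technical.

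The Hippo pathway is a chain of kinases that ends at LATS1 and LATS2. These kinases phosphorylate YAP, encoded by Yap1, and its relative TAZ, encoded by Wwtr1, which keeps both out of the nucleus. Unphosphorylated YAP and TAZ enter the nucleus and bind TEAD factors, which sit on DNA and carry no strong activation domain of their own. Stiff substrates, spreading and actin tension favour the nuclear form, so cultured fibroblasts and myoblasts usually express the targets well. In heart and muscle, YAP and TEAD are known for roles in proliferation and in mechanical and fibrotic responses. The amount of the pathway's mRNAs says nothing about the phosphorylation or location of YAP, which was not measured.

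The libraries held between 26748673 and 48574618 estimated reads, and the number of genes with 10 reads or more ran from 13913 to 15002. On the first principal component, which held 24.1% of the variance of log2 CPM, ESW libraries lay at -28.7 to -8.79 and CW libraries at 15.4 to 16.5, with Control replicate 1 at -10.9, inside the range of ESW. Calls against Control are therefore also given without that library. Of the 7 skeletal myoblast markers 4 reached 1 CPM (counts per 10 to the power of 6 reads, after TMM scaling of the library total) in at least 1 library. Cdh15, a cadherin of myoblasts, was the highest, and Myf5 did not exceed 0.0568 CPM. Of the 5 fibroblast markers 4 reached 1 CPM, led by Col1a1. The myoblast list summed to 44.9 to 56.5 CPM over the 9 libraries with 0 genes called. Tnnt2 led the cardiomyocyte list (52.0 to 64.0 CPM in sum) and Krt8 the epithelial one (49.3 to 64.65 CPM), and the endothelial list summed to at most 2.01 CPM. Nearly all of the first sum was Tnnt2 (51.4 to 62.3 CPM), and of the other cardiomyocyte markers only Tnni3 reached 1 CPM, at most 1.22. Krt8 alone had 49.2 to 64.6 CPM, and no other epithelial marker reached 1 CPM. Of the cardiomyocyte, endothelial, epithelial and blood markers none was called by edgeR in any of the 3 contrasts, but Krt8 was called in the test over 3 groups (edgeR adjusted p = 0.025), with its highest mean in CW (62.1 CPM), then ESW (55.4) and Control (53.0). The blood list summed to at most 0.657 CPM.

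Ccn2 and Ccn1 are the best known YAP targets, and both were called in ESW against CW, though not under every setting. Their promoters are shown with that of Amotl2 because all 3 hold the core TEAD site within 250 bases of the start. The sequences are from RefSeq and run 5′ to 3′ on the gene's strand up to the base before the start. Capitals mark GGAATG, the core of the TEAD site, searched on both strands and written CATTCC where it lies on the opposite strand, and TATAAA, searched on the gene's strand.
Ccn2 (GRCr8 chr1:22624615-22624864, minus strand): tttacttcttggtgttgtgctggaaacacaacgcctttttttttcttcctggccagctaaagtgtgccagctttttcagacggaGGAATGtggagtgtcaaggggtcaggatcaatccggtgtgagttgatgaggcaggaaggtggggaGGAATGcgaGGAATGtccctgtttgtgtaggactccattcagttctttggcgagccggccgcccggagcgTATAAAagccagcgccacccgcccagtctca
Ccn1 (GRCr8 chr2:237225690-237225939, minus strand): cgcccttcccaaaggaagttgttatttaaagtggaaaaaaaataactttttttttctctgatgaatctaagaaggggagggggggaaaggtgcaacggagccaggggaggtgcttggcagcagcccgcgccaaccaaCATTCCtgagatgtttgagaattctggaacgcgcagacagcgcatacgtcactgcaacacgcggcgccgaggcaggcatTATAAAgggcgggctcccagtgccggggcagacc
Amotl2 (GRCr8 chr8:112182376-112182625, plus strand): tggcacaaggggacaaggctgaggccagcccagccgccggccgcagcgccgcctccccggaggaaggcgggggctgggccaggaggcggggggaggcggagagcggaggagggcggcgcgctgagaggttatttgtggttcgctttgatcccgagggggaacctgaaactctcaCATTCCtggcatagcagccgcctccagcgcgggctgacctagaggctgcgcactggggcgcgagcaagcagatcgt

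The window of Ccn2 holds 3 TEAD cores, at 166 to 161, 101 to 96 and 92 to 87 bases before the start. Ccn1 holds 1 core on the opposite strand at 113 to 108 bases before the start, and Amotl2 1 on the opposite strand at 76 to 71. Of the 7 genes with an entry among the RefSeq promoters 5 had at least 1 core, the others being Yap1 and Ajuba with 1 each, while no GGAATG was found in the windows of Axl and Wwtr1. For comparison, 12.1% of 33469 promoters of the same length hold it, and so do 8 of 43 windows of other genes of the pathway. TATAAA was found in Ccn1 and Ccn2 and in 8.06% of all windows, and TGANTCA, the AP-1 site, in 0 of the 7 and in 6.34% of all (searched on both strands). No match overlaps another. A match is a run of letters and not a measured binding site.

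**Figure D1:**
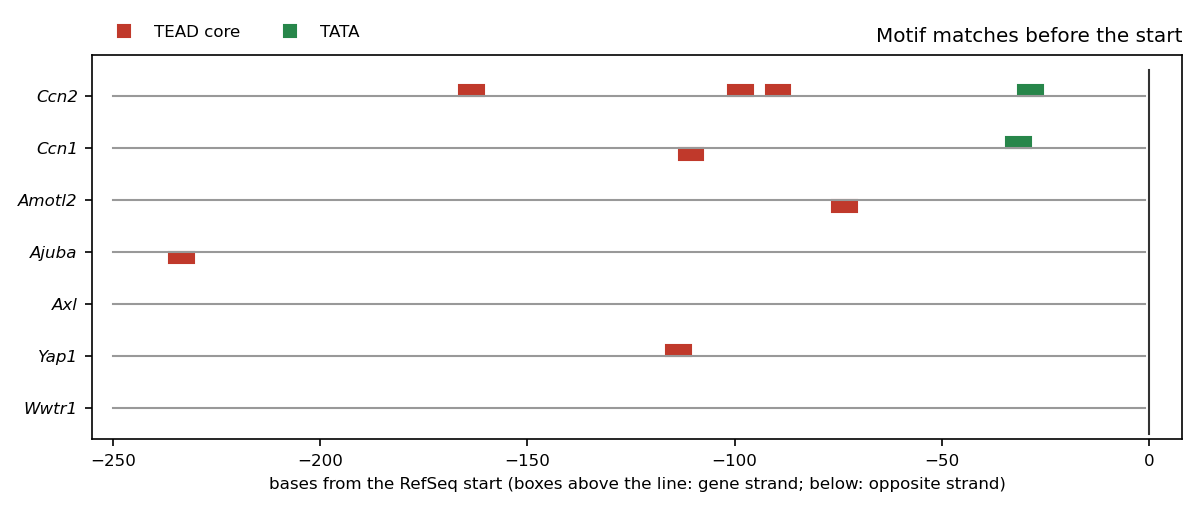
Positions of the core TEAD site and of the TATA motif in the 250 bases before the RefSeq start of 7 genes, in bases from the start, with boxes above the line on the gene's strand and below it on the opposite strand. Ccn2 carries 3 TEAD cores and Ccn1, Amotl2, Ajuba and Yap1 carry 1 each.

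The pathway was expressed at every step in all 9 libraries, and Ccn2, Ankrd1, Ccn1 and Axl were more abundant than Yap1, Wwtr1 and Tead1. In TPM, a level per transcript length, Ccn2, a secreted matricellular protein also called CTGF, was the highest with a mean of 3064 (range 2774 to 3330), and it ranked between 26th and 40th of all tested genes in the 9 libraries. Ankrd1, a cardiac ankyrin repeat protein found in sarcomeres and nuclei, had 904 TPM (886 to 941), Ccn1, the matricellular protein CYR61, 589 (562 to 635) and Axl, a receptor tyrosine kinase, 293 (270.1 to 316). Amotl2, an angiomotin that binds YAP at cell junctions, had 145 TPM (135 to 155). These 5 genes did not overlap each other in any library.

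The remaining regulators and the factors lay lower and closer together. Ajuba, a LIM protein that restrains LATS kinases, had 72.9 TPM (68.7 to 78.1), Yap1 67.7 (63.6 to 74.0) and Tead1 62.6 (58.2 to 67.2). Wwtr1 had 43.6 TPM (39.7 to 48.5) and Lats2 40.7 (38.0 to 43.9). The ranges of Ajuba and Yap1, of Yap1 and Tead1, and of Wwtr1 and Lats2 overlapped. Within libraries Ajuba was above Yap1 in 9 of 9, Wwtr1 above Lats2 in 9 of 9 and Yap1 above Tead1 in 8 of 9, the exception being CW replicate 1. Even the lowest of the 10, Lats2, lay above 76.3% of the tested genes.

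Ratios within a library set the genes against each other. Yap1 exceeded Wwtr1 in every library, with a ratio of TPM of 1.58 ± 0.0636 in ESW, 1.55 ± 0.0913 in CW and 1.54 ± 0.0589 in Control (SD, n = 3 each). The ratio of Ccn2 to Ccn1 was 5.26 ± 0.0999 in ESW, 5.17 ± 0.250 in CW and 5.17 ± 0.227 in Control (SD, n = 3 each), and the groups overlapped. The ratio of Tead1 to Yap1 was 0.871 ± 0.0376 in ESW, 0.975 ± 0.0307 in CW and 0.931 ± 0.0467 in Control (SD, n = 3 each). Its 3 ESW values, 0.873, 0.833 and 0.908, lay below the 3 CW values, 1.01, 0.964 and 0.951, but not below all Control values. The share of ratios that separate so was not computed, and in CPM 28.3% of single tested genes did not overlap between ESW and CW. Yap1 alone also separated ESW from CW in TPM, so the ratio is not a separate observation.

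**Figure D2:**
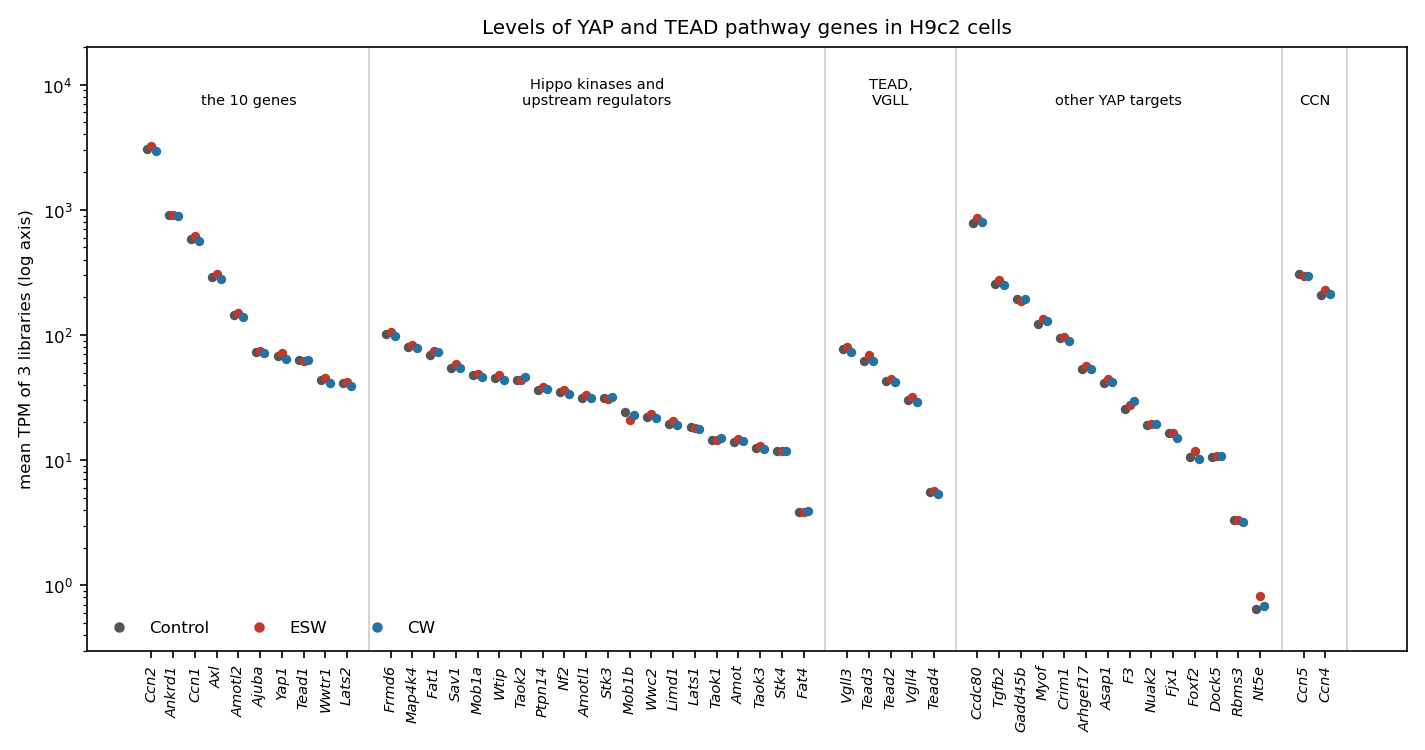
Mean TPM of 3 libraries (log axis) for the 10 genes and the tested genes of 4 further lists, with Control in grey, ESW in red and CW in blue. Ccn2 stands highest at a mean of 3064 TPM, and the 3 groups lie close together for every gene.

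ESW was compared with Control to ask which mRNAs differ after the water treatment. Ccn2 was higher in ESW, by 0.14 on the log2 scale, and it was the 1 gene of the 10 that was called, that is, below an adjusted p of 0.05 over all genes tested. The other 9 were not called, with differences between -0.05 and 0.10 on the log2 scale. The count of 1 higher and 0 lower of 10 stands beside 8.04% of all tested genes called, 4.76% higher and 3.28% lower, so the share of called genes was close to the background. At an unadjusted p under 0.05 stood 3 of the 10, Ccn1, Ccn2 and Axl, beside 22.8% of all tested genes. The median log2 fold change of the 10 was 0.08 and that of all tested genes -0.01.

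Ccn2 had 3571, 3201 and 3362 CPM in Control replicates 1 to 3 and 3720, 3657 and 3786 in ESW. All 3 ESW libraries lay above all 3 Control libraries, although ESW replicate 2 exceeded Control replicate 1 by little. The means were 3721 ± 64.1 and 3378 ± 186 CPM (SD, n = 3 each). The log2 fold change was 0.14 (SE 0.04, 95% interval 0.05 to 0.23, edgeR adjusted p = 0.0465). Such a lack of overlap with ESW on top was found for 1 of the 10 genes and for 13.3% of all tested genes.

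The call of Ccn2 was close to the threshold and depended on the libraries and on the handling of transcript length. Without Control replicate 1 the log2 fold change was 0.18 (edgeR adjusted p = 0.00688), without Control replicate 2 it was 0.10 (adjusted p = 0.218), without Control replicate 3 0.14 (adjusted p = 0.122), without ESW replicates 1, 2 and 3 0.14, 0.15 and 0.13 (adjusted p = 0.0822, 0.0745 and 0.181), and without CW replicates 1 and 3 0.14 each (adjusted p = 0.0527 and 0.0555). With offsets for the effective length, the length of a transcript as Salmon corrected it for each library, the value was 0.08 (adjusted p = 0.415). The effective length of the 1 Ccn2 transcript was 1952 bases in ESW replicate 1 and 1849 to 1891 bases in the other 8 libraries. In TPM, which uses that length, Ccn2 had 3053, 3283 and 3330 in ESW and 3271, 2851 and 2984 in Control, and the groups overlapped. The effective length in ESW replicate 1 was not peculiar to Ccn2. It also lay outside the range of the other 8 libraries for Ccn1 (1626.8 against 1555.8 to 1593.5 bases) and Wwtr1 (1440.2 against 1370.6 to 1401.7). For Ankrd1 it was shorter (1570.5 against 1598.8 to 1692.0).

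Ccn1 had 556, 531 and 568 CPM in Control and 601, 567 and 603 in ESW. ESW replicate 2 lay just below Control replicate 3, and the log2 fold change of 0.10 (SE 0.04, 95% interval 0.02 to 0.18) was not called (edgeR adjusted p = 0.133). With length offsets the value was 0.05 (adjusted p = 0.515). In TPM Ccn1 had 591.7, 612.6 and 634.5 in ESW and 602.8, 562.5 and 596.1 in Control. Axl had 801, 737 and 771 CPM in Control and 801, 810 and 838 in ESW, a log2 fold change of 0.09 (adjusted p = 0.196). Ankrd1, the third target of the classic trio with Ccn1 and Ccn2, had 922, 884 and 910.2 CPM in Control and 876, 900.2 and 907 in ESW. Its log2 fold change was -0.02 with a 95% interval of -0.0891 to 0.0533. The estimate for Ccn2 lay above this interval, but the interval of Ccn2 began at 0.0516, so the 2 intervals overlapped. A difference between the 2 genes was not tested. The libraries of Ankrd1 varied little, with a residual SD of 0.0252 on the log2 scale against a median of 0.0922 over all tested genes.

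Yap1 had 170, 162 and 161 CPM in Control and 166, 175 and 180 in ESW, a log2 fold change of 0.08 (95% interval -0.0025 to 0.17, edgeR adjusted p = 0.233). Wwtr1 had 39.2, 35.1 and 35.0 CPM in Control and 38.7, 35.9 and 40.6 in ESW, with a log2 fold change of 0.08 and the widest interval of the 10, -0.05 to 0.20. Tead1 had 273, 251 and 273 CPM in Control and 250, 247 and 272 in ESW, a log2 fold change of -0.05 (adjusted p = 0.547). The groups overlapped for all 3 of these genes. The regulators Amotl2, Lats2 and Ajuba had log2 fold changes of 0.07, 0.05 and 0.10 with adjusted p of 0.311, 0.515 and 0.251, and their groups overlapped as well.

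**Figure D3:**
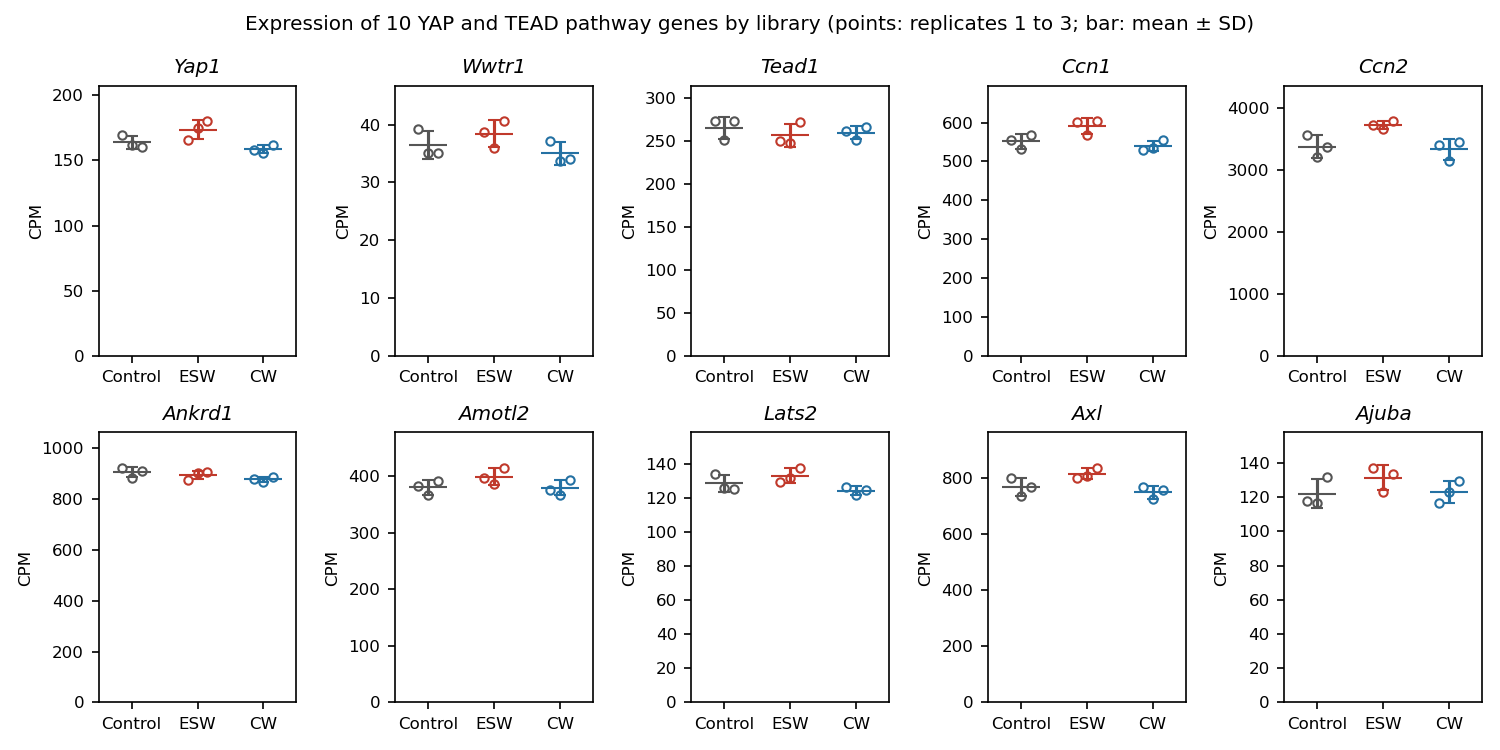
CPM of the 10 genes in each library (points, replicates 1 to 3 from left to right) with the mean and SD of each group (bar), from 0. The 3 ESW libraries of Ccn2, at 3657 to 3786 CPM, lie above all Control and CW libraries, and most other genes overlap between groups.

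The contrast of ESW with CW asks how the 2 waters differ at the same dilution. Ccn2 and Ccn1 were both higher in ESW, by 1.12-fold and 1.09-fold, and no gene of the 10 was called lower. The differences of Yap1 and Axl, at 0.13 and 0.12 on the log2 scale, just missed the threshold. The 2 called of 10 stand beside 8.14% of all tested genes called, 4.15% higher and 3.99% lower, and 6 of 10 had an unadjusted p under 0.05 beside 23.9%. The median log2 fold change was 0.11 for the 10 and -0.0018 for all tested genes. The comparison shares its ESW libraries with the one against Control, and so the 2 sets of values are not independent.

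Ccn2 had 3394, 3145 and 3456 CPM in CW, below the 3657 to 3786 of ESW, with a log2 fold change of 0.16 (SE 0.04, 95% interval 0.07 to 0.25, edgeR adjusted p = 0.0248). Ccn1 had 530, 535 and 555 CPM in CW against 567 to 603 in ESW, a log2 fold change of 0.13 (SE 0.04, 95% interval 0.05 to 0.21, adjusted p = 0.0468). Neither gene overlapped between the groups in CPM. In TPM Ccn1 still separated them, at 592 to 635 against 563 to 575, whereas Ccn2 did not, since CW replicate 1 at 3068 lay above ESW replicate 1 at 3053.

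With the length offsets both genes lost the call, Ccn2 at 0.13 (edgeR adjusted p = 0.107) and Ccn1 at 0.11 (adjusted p = 0.106). Ccn2 also lost it without ESW replicate 2, ESW replicate 3 or CW replicate 2 (adjusted p = 0.0536, 0.122 and 0.134), and Ccn1 without ESW replicates 1 or 3 or any 1 CW library (adjusted p between 0.0739 and 0.201), with DESeq2 size factors (adjusted p = 0.0515) and with a filter of 1 CPM (adjusted p = 0.0651). Over all 17 other settings the log2 fold change ran from 0.12 to 0.19 for Ccn2 and from 0.11 to 0.16 for Ccn1.

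Yap1 had 158, 156 and 162 CPM in CW and 166 to 180 in ESW, without overlap, and its log2 fold change of 0.13 had an adjusted p of 0.0518. Axl had 771, 725 and 758 CPM in CW and 801 to 838 in ESW, again without overlap, with 0.12 and an adjusted p of 0.0624. Lats2, the kinase, was the fifth gene whose groups did not overlap, with 127, 122 and 125 CPM in CW and 129 to 138 in ESW (log2 fold change 0.10, adjusted p = 0.152). These 5 of 10 genes, all with ESW on top, stand beside 28.3% of all tested genes that did not overlap, 14.9% with ESW on top and 13.4% with ESW below. In TPM 3 genes did not overlap, Yap1, Ccn1 and Axl, but the share of all tested genes was not computed in TPM. Among other settings, Yap1 and Axl were called without Control replicate 1 (edgeR adjusted p = 0.0383 and 0.0392) and with DESeq2 (adjusted p = 0.0296 and 0.0273).

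The remaining 5 genes overlapped between ESW and CW. Wwtr1 had a log2 fold change of 0.14 (95% interval 0.0061 to 0.26), close to that of Yap1 but with a larger spread (edgeR adjusted p = 0.186). Ajuba and Amotl2 lay at 0.09 and 0.07 (adjusted p = 0.312 and 0.277). Ankrd1 had 876, 867 and 885 CPM in CW, a log2 fold change of 0.03 (95% interval -0.04 to 0.10). Tead1 had 261, 251 and 266 CPM in CW, a log2 fold change of -0.02 (95% interval -0.11 to 0.08).

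Among the cell type markers, Col1a1 of the fibroblast list was also higher in ESW. The 5 fibroblast markers together had 39720 to 41400 CPM in ESW, 32330 to 34490 in Control and 33590 to 35440 in CW. Of them 1, Col1a1, a collagen chain and by far the most abundant, was called in each comparison with ESW, by 0.29 against Control and 0.24 against CW on the log2 scale. Col1a1 carried the sum, and Postn, Lum, Dcn and Pdgfra were not called. Dcn had means of 9.56 CPM in ESW, 9.27 in Control and 10.5 in CW, and Pdgfra 0.211, 0.368 and 0.165. Any link of Col1a1 to the values of the 10 genes was not tested. In bulk RNA fewer cells of a type and less RNA per cell cannot be told apart.

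**Figure D4:**
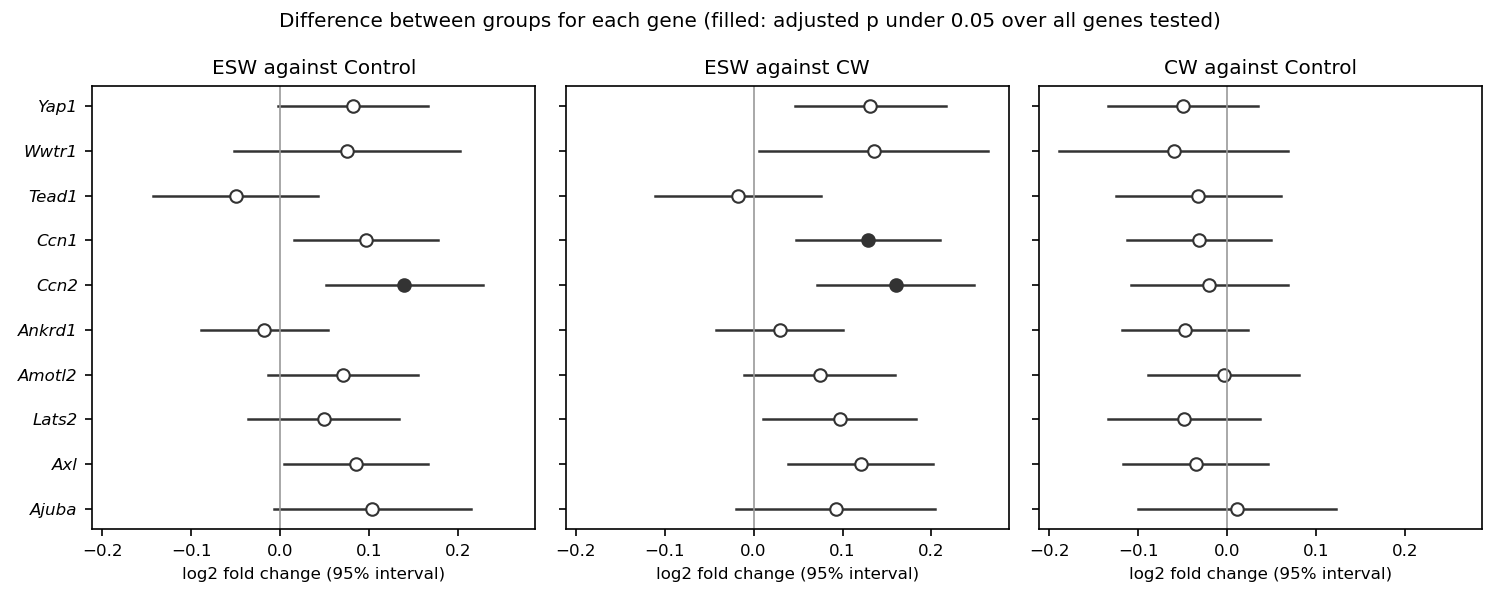
Log2 fold change of the 10 genes in the 3 comparisons with 95% intervals (lines), from edgeR, where filled points have an adjusted p under 0.05 over all genes tested. Ccn2 is filled in both comparisons with ESW and Ccn1 in ESW against CW, and no gene is filled in CW against Control.

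CW was compared with Control to see how cells given diluted control water differed from untreated cells. No gene of the 10 was called by edgeR, 0 of 10 had an unadjusted p under 0.05, and DESeq2 and limma-voom also called 0. Among all tested genes 0.177% were called, 0.0272% higher and 0.15% lower, and 9.87% had an unadjusted p under 0.05. The log2 fold changes ran from -0.06 for Wwtr1 to 0.01 for Ajuba, with 9 of 10 below 0 and a median of -0.03, and the groups overlapped for all 10, whereas 14.7% of all tested genes did not overlap, 7.13% with CW on top and 7.56% with CW below. Ccn2 had 3332 ± 164 CPM in CW and 3378 ± 186 in Control (SD, n = 3 each), with a 95% interval of -0.11 to 0.07 for the log2 difference. A single test over the 3 groups called 1 of the 10, Ccn2 (adjusted p = 0.0316), beside 9.58% of all tested genes, and 4 had an unadjusted p under 0.05 beside 25.2%.

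Salmon divided the reads of several of these genes among more than 1 RefSeq transcript, by estimate. Ccn1, Ccn2, Ankrd1 and Wwtr1 have 1 transcript each, so no division affects them. Yap1 has 9, of which those of 4199 and 4151 bases took 38.8% to 49.5% and 38.9% to 49.7% of its TPM, and a non-coding one took 0.326% to 2.40%. Tead1 has 10, led by that of 9260 bases with 36.6% to 51.4%, and 1 of them had no read in any library. The Tead1 transcript of 9197 bases took 18.9%, 16.8% and 20.0% in ESW, 15.1%, 9.9% and 13.7% in Control and 5.6%, 9.9% and 9.5% in CW, so the 3 ESW libraries were the highest. Axl has 3, whose shares were stable, with that of 4325 bases at 56.0% to 59.8%.

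The isoform shares of Ajuba and Lats2 also separated some of the groups. These 2 genes and the Tead1 transcript were picked after their values were seen. Minor transcripts of other genes separated groups as well. That of Yap1 with 4350 bases took 4.2%, 4.8% and 6.7% in ESW and at most 2.57% elsewhere. That of Amotl2 with 4719 bases took 0.607% to 1.18% in ESW and 1.31% to 2.05% in Control. How many transcripts separate groups was not counted. For Ajuba the shorter transcript, of 2475 bases, took 6.4%, 6.0% and 5.1% of TPM in ESW, 7.1%, 8.9% and 11.3% in Control and 11.0%, 12.4% and 11.4% in CW. The 3 ESW libraries were the lowest, on 184 to 249 reads against 264 to 589 in the other libraries. For Lats2 the transcript of 4958 bases took 28.4%, 12.4% and 11.2% in Control, 27.3%, 47.4% and 45.6% in ESW and 36.3%, 38.0% and 31.1% in CW. Here the CW libraries lay above all Control libraries, and ESW overlapped both. With 3 libraries against 3, an exact two-sided permutation test cannot go below p = 0.1 and so cannot decide on these shares, which are given as a description.

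The other genes of the pathway were 47 in 4 lists. Of the 41 tested, 2 were higher and 0 lower in ESW against Control, beside 4.76% higher and 3.28% lower of all tested genes. In ESW against CW 4 were higher and 0 lower, beside 4.15% and 3.99%. At an unadjusted p under 0.05 stood 10 and 13 of the 41, beside 22.8% and 23.9% of all tested genes. In CW against Control 0 were called by edgeR (4 of 41 at an unadjusted p under 0.05, beside 9.87% of all, and 0 with DESeq2 or limma-voom). The median log2 fold change of the 41 was 0.05 in ESW against Control and 0.06 in ESW against CW. Wwc1, Dchs1, Vgll2, Igfbp3, Ccn3 and Ccn6 had too few reads to be tested, between 1 and 59 over the 9 libraries.

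Among the kinases and upstream regulators of LATS, 0 of 20 tested genes were called in any contrast by edgeR, and 4 and 5 had an unadjusted p under 0.05 in ESW against Control and against CW. Of all tested genes 8.04% and 8.14% were called, and 22.8% and 23.9% had such a p, so the latter counts were near the background. Frmd6, a FERM domain protein upstream of the kinases and the highest of this list at 102 TPM, had log2 fold changes of 0.06 and 0.09 (adjusted p = 0.468 and 0.193).

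The TEAD paralogs and the vestigial-like cofactors, which compete with YAP for TEAD, held 5 tested genes. Of these 1 was called higher in ESW against Control and 2 in ESW against CW, beside 8.04% and 8.14% of all tested genes called. In CPM 2 and 4 of the 5 did not overlap, with ESW on top, beside 13.3% and 14.9% of all. The share of genes with ESW above both other groups at once was not computed. Tead3 had 100.2, 97.3 and 99.8 CPM in Control, 115, 108 and 112 in ESW and 94.5, 99.9 and 103 in CW. Its ESW libraries lay above all others, and it rose by 0.17 on the log2 scale against both Control (SE 0.04, edgeR adjusted p = 0.0155) and CW (SE 0.04, adjusted p = 0.0193). In TPM the ESW values of Tead3 were 69.0, 69.4 and 69.5 against 59.4 to 64.3 in the other 6 libraries. The call against Control was lost with the length offsets (adjusted p = 0.0571) and without Control replicate 2, ESW replicate 1 or ESW replicate 3 (adjusted p = 0.0732, 0.0537 and 0.0773) but not without Control replicate 1 (adjusted p = 0.0178), and that against CW without ESW replicates 1 or 3 or CW replicates 1 or 2 (adjusted p between 0.0568 and 0.090). Over the 17 other settings the log2 fold change of Tead3 ran from 0.15 to 0.20 against Control and from 0.14 to 0.20 against CW. Tead3 and Tead1 were at similar levels per length, with Tead2 at 43.1 and Tead4 at 5.52 TPM. Tead2 and Tead4 were not called. Their log2 fold changes were 0.03 and 0.02 against Control (edgeR adjusted p = 0.782 and 0.904) and 0.06 each against CW (adjusted p = 0.465 and 0.568). Vgll3, the highest of the list at 76.6 TPM, was higher in ESW than in CW by 0.18 (adjusted p = 0.0227) and not called against Control at 0.06 (adjusted p = 0.463). Its call was lost with the length offsets (adjusted p = 0.125), without ESW replicate 3 (adjusted p = 0.109) and without CW replicate 2 (adjusted p = 0.127), with log2 fold changes of 0.13 to 0.20 over the 17 other settings.

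Of 14 tested further YAP targets 0 were called in ESW against Control by edgeR (3 at an unadjusted p under 0.05) and 2 in ESW against CW. The shares of all tested genes were 8.04% called and 22.8% unadjusted in the first comparison and 8.14% called in the second. Foxf2, a forkhead factor of mesenchyme, had 18.7, 21.2 and 21.7 CPM in ESW and 16.8, 17.7 and 17.4 in CW, higher by 0.25 (SE 0.07, adjusted p = 0.0312). Tgfb2, a TGF-beta ligand, had 590, 597 and 626 CPM in ESW and 558, 511 and 552 in CW, higher by 0.16 (SE 0.05, adjusted p = 0.040). Both calls were lost with the length offsets (adjusted p = 0.122 and 0.110) and without ESW replicates 2 or 3 or CW replicates 2 or 3, that of Foxf2 also without CW replicate 1 (adjusted p between 0.0776 and 0.199). Over the 17 other settings the log2 fold change ran from 0.20 to 0.31 for Foxf2 and from 0.12 to 0.19 for Tgfb2. Ccdc80, a secreted matrix protein and the most abundant of these targets at 818 TPM, had log2 fold changes of 0.07 and 0.08 (adjusted p = 0.390 and 0.344).

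Of the relatives of Ccn1 and Ccn2, Ccn4 rose in ESW against Control by 0.15 (SE 0.04, edgeR adjusted p = 0.028), with 506, 487 and 501 CPM in ESW and 472, 436 and 441 in Control. Against CW its log2 fold change was 0.12 (adjusted p = 0.0714). Thus 1 and 0 of 2 tested relatives were called, beside 8.04% and 8.14% of all tested genes. Ccn5, at 299.8 TPM, had 0.0011 and 0.02 (adjusted p = 0.993 and 0.797). The call of Ccn4 was lost with the length offsets (adjusted p = 0.199) and without Control replicates 2 or 3 or ESW replicates 1 or 3 (adjusted p between 0.0749 and 0.132), and without Control replicate 1 the adjusted p was 0.00587. Its log2 fold change ran from 0.11 to 0.18 over the 17 other settings.

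**Figure D5:**
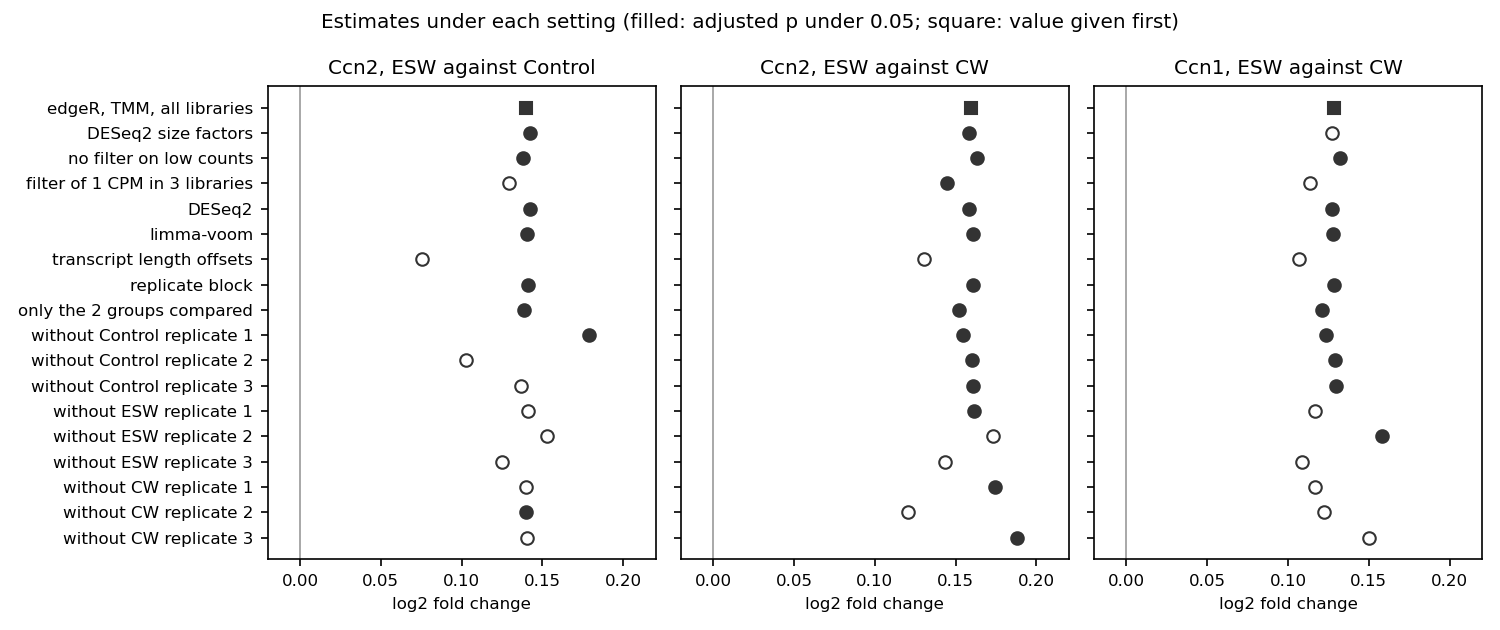
Log2 fold change of Ccn2 in ESW against Control and of Ccn2 and Ccn1 in ESW against CW (x axis) with the reported edgeR fit (square) and 17 other settings (circles), filled where the adjusted p is under 0.05. Every value lies above 0, and the smallest, 0.08, is that of Ccn2 against Control with transcript length offsets.

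Over the 9 libraries, 10004 protein-coding genes averaging 5 CPM or more were ranked by how closely their log2 CPM followed that of 5 of the genes. Ckap4, Itga5 and Mmp14 were most like Yap1 (Pearson r 0.984, 0.984 and 0.974). App, Armcx2 and Atp2a2 were most like Ccn2 (0.980, 0.974 and 0.970), and Cnksr3, Lemd2 and Smpd1 most like Ccn1 (0.955, 0.955 and 0.951). For Tead1 these were Pyroxd1, Rapgef4 and Zfp704 (0.932, 0.923 and 0.919), and for Ankrd1 Max, Atf6 and Dhx9 (0.937, 0.927 and 0.925). These are the highest of 10004 values over 9 points that share library and depth, and they are given as a description.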

How the data were processed

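RNA of 9 samples was purified with RNeasy Plus Mini columns, and libraries were read on a NovaSeq X Plus, as the labels' protocols say. Salmon 1.10.3 and DESeq2, the latter without a version, are named in the submitters' processing notes. Each deposited table lists 114122 RefSeq transcripts with an estimated count, a TPM value, which the authors' Salmon run scaled to an equal total per library, and, as another quantity, an effective length in bases, per the file headers. The estimated counts are fractional. Build, annotation release, bias options and use of strand are not given in the sources used here. Overlapping and antisense genes may share reads.

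All 114122 transcripts were matched by accession to RefSeq genes of GRCr8 (names and promoter sequences). Estimated counts and TPM were summed per gene, and counts were rounded to whole numbers. edgeR 4.0.16 (R 4.3.3, TMM scaling, filterByExpr, quasi-likelihood test, 1 mean per group over all 9 libraries) gave 3 contrasts and a test over 3 groups. P-values were adjusted by Benjamini-Hochberg over 14706 genes, with calls below 0.05. SE is the log2 fold change over the root of F, and 95% intervals use it. CPM uses the TMM-scaled totals, and log2 CPM a prior count of 2. The test was also run on simulated data. The changes planted there were larger than those called among the pathway genes here. That run therefore does not show how the test performs at the sizes reported. Alternatives, 17 in all, were other scaling, 2 other filters, DESeq2 1.42.0, limma-voom (limma 3.58.1), length offsets, a replicate block, fits of 2 groups and the loss of each library. The 10 genes and the lists were chosen with earlier results of these data known. The rule named the 10 genes, every called gene of the 4 lists, each list's highest gene by TPM, and 3 genes most like each of Yap1, Tead1, Ccn1, Ccn2 and Ankrd1.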

Additional observations from a re-analysis of the deposited data

How the results depend on the processing

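Of the 10 genes, 1 was called in ESW against Control, and 0 were called with a filter of 1 CPM in 3 libraries or with transcript length offsets. In ESW against CW 2 were called, against 1 with DESeq2 size factors or the 1 CPM filter, 0 with length offsets, and 4 without a filter, with DESeq2 or with only the 2 groups compared. The test over 3 groups called 1, against 3 without a filter or with DESeq2 and 0 with length offsets. Of the other pathway genes 2 were called in ESW against Control, against 4 without a filter or with DESeq2 and 0 with length offsets, and 4 in ESW against CW, against 1 with length offsets. Leaving out 1 library gave 0 to 1, 0 to 4 and 0 to 1 of the 10 genes in these 3 tests and 0 to 3 and 0 to 6 of the other genes. In CW against Control 0 were called under all 17 alternatives. With length offsets the calls over all genes also fell, from 1183 to 440 in ESW against Control and from 1197 to 803 in ESW against CW. Without Control replicate 1 they rose to 1544 in ESW against Control and 1486 in ESW against CW. Without ESW replicate 3 they fell to 394 and 314. The cause of these changes was not tested.

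Ccn2 stayed above 0 in all 17 alternatives of both ESW comparisons and was called in 8 and 13 of them. Ccn1 in ESW against CW was called in 9. Changes of sign occurred in values near 0 that were not called. Tead1 in ESW against CW ran from -0.0650 to 0.00862 over the 9 libraries left out in turn. In CW against Control the same range was -0.0576 to 0.0241 for Ccn2, -0.0321 to 0.0181 for Amotl2 and -0.0279 to 0.0718 for Ajuba. Amotl2 was also at 8.48e-05 with DESeq2 size factors, 3.82e-05 with DESeq2 and 0.000522 with the 1 CPM filter, and Ajuba at -0.0345 with length offsets.

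Groups share replicate numbers, but deviations of same-numbered libraries from their group means had correlations of -0.118 to 0.0402 over genes, 0 of 9 above 0.1, and 1 of 9 libraries correlated best with its own number. These values show no shared deviation by number, but the labels do not say whether same-numbered samples were handled together. A replicate block gave 1, 2 and 0 called genes of the 10 in the 3 contrasts and 2, 5 and 0 of the other genes. The lowest of the 10 genes, Wwtr1, had 1004 reads or more in every library. The precision of their differences is limited by having 3 libraries a group.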
